A study of Mus musculus with 20 samples.

Results

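Peripheral myelin genes are the genes that Schwann cells, the glia of peripheral nerve, switch on to build the myelin sheath. The 8 genes described here were listed by name for that known role, with earlier results of these data known: Mbp, Pmp22, Prx, Egr2, Mag, Cnp, Gjb1 and Mal. All 8 were found by symbol among the 37620 genes listed for these samples. Dorsal root ganglia (DRG) lie beside the spinal cord and hold sensory neurons with their glia, and the large axons among them are set apart by their own Schwann cells before birth and then wrapped. The transcription factor Egr2 turns on structural myelin genes together with Sox10. Proteins of compact myelin hold the membrane layers together, and proteins of non-compact myelin, such as those at the inner and outer faces of the sheath, tie it to the axon and to the basal lamina. Prx and Mag were treated as late genes of this programme and the other 6 as early genes.

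The samples were whole DRG of C57Bl6 mouse embryos at E18.5, close to birth, with no genetic change or treatment in the labels. Lumbar (L4-5) and sacral (L6-S1) ganglia of 10 embryos, 5 of each sex, were sequenced separately, which gave 20 libraries in 4 groups of 5: lumbar and sacral ganglia of males, and lumbar and sacral ganglia of females. The study asked how sacral ganglia, which hold neurons that project to pelvic organs, differ from lumbar ganglia, and the question here is whether the myelin programme differed between the levels and the sexes. The values are the deposited log2 RPKM, the log2 of read counts scaled to gene length and library size. The sources used here do not say whether nerve roots were left on the embryonic ganglia, nor which embryos were littermates.

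The reads that could be recovered from the values numbered 19403023 to 39257771 per library, and the share of them on the 2 mitochondrial ribosomal RNA genes ranged from 18.1% to 61.4%. Oligodendrocytes of the spinal cord also express Mbp, Mag, Cnp and Mal. Of 10 markers of oligodendrocytes and spinal cord, Opalin had 0 to 1 reads per library, Mobp 0 to 3 and Nkx2-2 0 to 4, while Olig1 had 0 to 18, Olig2 and Ermn 0 to 24 and Mog 1 to 50, with a mean level of Mog, 0.313 RPKM, above that of Mag. Omg, Slc1a2 and Aldh1l1, which other neural cells also express, had 75 to 279, 204 to 856 and 4 to 161 reads. The summed level of the 10 was 3.54 to 7.26 RPKM in lumbar and 3.76 to 6.10 RPKM in sacral ganglia, lower in 6 of 10 embryos. Most of that sum was Omg and Slc1a2, at means of 2.50 and 1.58 RPKM. Taken singly, 3 of the 10 markers were lower in sacral ganglia, and the median log2 difference was 0.34. None passed the test with no filter, although Mog had 117 reads in the lumbar and 197 in the sacral libraries, and Olig2 had 7 and 76. The part of these 10 markers in the results was not tested. In whole tissue, fewer cells of a type and less RNA per cell cannot be told apart.

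Promoter sequences are shown for the members that passed the test between levels and for Mag, so that the letters can be set beside the values. Windows of 300 bases, from 250 before to 50 after a transcript start, were taken from RefSeq (GRCm38.p6), which gave 19 windows for 7 of the 8 genes. Mbp is named only. The first window listed for each gene is printed 5′ to 3′ along the gene, with the strand in parentheses. Capitals mark the letters GTGGGNG, a core that Egr factors can bind, or ACAAAG or ACAATG, cores of Sox sites, on either strand.
Prx, chr7:27499074-27499373 (+): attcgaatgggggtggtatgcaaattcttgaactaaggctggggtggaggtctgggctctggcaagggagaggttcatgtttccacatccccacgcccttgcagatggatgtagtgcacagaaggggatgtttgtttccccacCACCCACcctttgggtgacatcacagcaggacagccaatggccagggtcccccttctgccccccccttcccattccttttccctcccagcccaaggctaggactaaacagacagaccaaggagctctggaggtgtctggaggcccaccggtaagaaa
Mag, chr7:30914814-30915113 (-): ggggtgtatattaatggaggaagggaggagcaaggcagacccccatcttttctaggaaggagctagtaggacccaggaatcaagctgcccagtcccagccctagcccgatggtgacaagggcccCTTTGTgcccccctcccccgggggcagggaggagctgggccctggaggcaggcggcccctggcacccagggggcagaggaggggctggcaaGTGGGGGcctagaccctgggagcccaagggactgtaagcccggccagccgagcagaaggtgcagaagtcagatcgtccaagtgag
Egr2, chr10:67535249-67535548 (+): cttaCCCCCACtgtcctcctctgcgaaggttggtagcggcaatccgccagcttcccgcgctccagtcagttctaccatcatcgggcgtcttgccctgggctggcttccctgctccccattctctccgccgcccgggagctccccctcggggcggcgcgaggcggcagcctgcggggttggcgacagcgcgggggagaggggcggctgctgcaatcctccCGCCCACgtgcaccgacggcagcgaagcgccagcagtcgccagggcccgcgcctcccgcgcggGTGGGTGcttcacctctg
Mal, chr2:127656646-127656945 (-): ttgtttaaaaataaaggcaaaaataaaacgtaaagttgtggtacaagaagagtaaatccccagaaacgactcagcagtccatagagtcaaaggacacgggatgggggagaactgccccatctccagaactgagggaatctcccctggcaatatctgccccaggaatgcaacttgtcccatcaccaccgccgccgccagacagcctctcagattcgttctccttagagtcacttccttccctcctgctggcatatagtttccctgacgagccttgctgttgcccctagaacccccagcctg
The Egr letters were in 7 of the 19 windows (36.8%), from 5 of the 7 genes, and in 31.6% of all 32851 promoter windows. Either of the Sox cores was in 5 of the 19 windows (26.3%), from 3 of the 7 genes, and in 28.6% of all windows (ACAAAG in 18.7% and ACAATG in 12.6%). Several windows of a gene overlap. These matches describe the letters, and the motifs were chosen after the values were known.

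Pmp22, a membrane protein of compact peripheral myelin, had the highest level of the 8 genes, with a mean of 179 ± 45.5 RPKM (SD, n = 20 libraries). Mal, a proteolipid that helps to sort membrane for the sheath, was at 16.7 ± 6.93 RPKM and Cnp, an enzyme that keeps cytoplasmic channels open in myelin, at 15.0 ± 3.93 RPKM. These neighbours did not differ beyond their spread, since Mal was above Cnp in 12 of 20 libraries and below it in 8. Mbp, which joins the inner faces of the compact membrane, was at 7.64 ± 1.75 RPKM. Prx, the scaffold periaxin of the outer Schwann cell membrane, was at 1.11 ± 0.571 RPKM and Egr2 at 0.754 ± 0.421 RPKM, with Prx higher in 17 of 20 libraries. Mag, an adhesion molecule on the membrane facing the axon, was at 0.234 ± 0.222 RPKM. Gjb1, the gap junction protein connexin 32, was at 0.0864 ± 0.122 RPKM. For the other neighbours in this order the higher gene was higher in every library, except for Mag and Gjb1, where Mag was higher in 16 libraries, lower in 3 and equal in 1. In mm9, Pmp22 (ENSMUSG00000018217) lies at chr11:62942484-62973049, Mal (ENSMUSG00000027375) at chr2:127458962-127482431, Cnp (ENSMUSG00000006782) at chr11:100436218-100453043, Egr2 (ENSMUSG00000037868) at chr10:66998223-67004936 and Gjb1 (ENSMUSG00000047797) at chrX:98571717-98580968. Reads were counted over the exons of each gene.

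**Figure D1:**
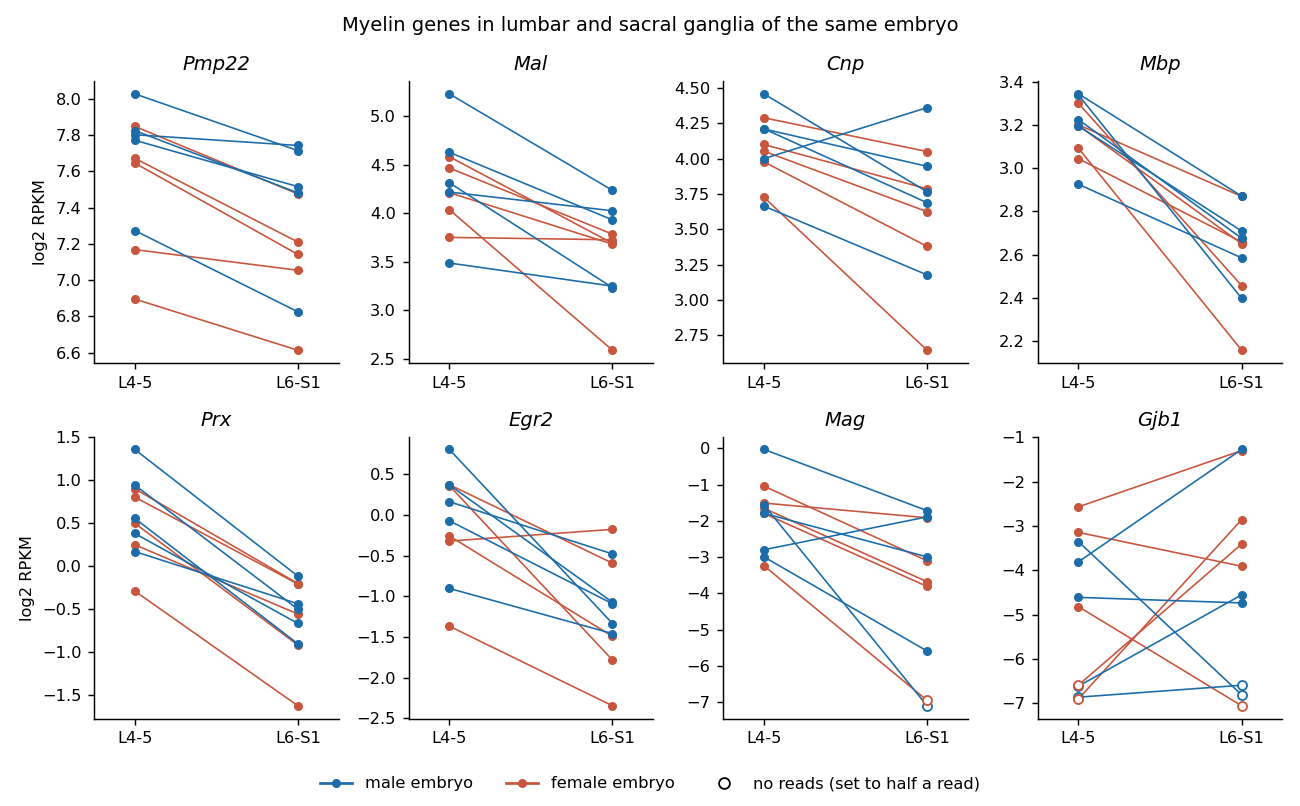
Level of each of the 8 myelin genes (log2 RPKM, vertical axis, with its own range in each panel) in lumbar L4-5 and sacral L6-S1 ganglia, with a line joining the libraries of the same embryo and open circles for libraries without reads of the gene. All 10 lines fall for Pmp22, Mal, Mbp and Prx, 9 of 10 fall for Cnp, Egr2 and Mag, and 4 of 10 fall for Gjb1.

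Among the genes of compact myelin, Mbp was lower in sacral ganglia of every embryo. In male embryos M1, M3, M5, M7 and M8, Mbp was at 10.2, 9.16, 10.1, 7.60 and 9.35 RPKM in lumbar ganglia and at 7.31, 6.54, 5.27, 5.997 and 6.39 RPKM in sacral ganglia. In female embryos F3, F7, F8, F9 and F10, Mbp was at 9.20, 8.53, 9.18, 8.25 and 9.85 RPKM in lumbar ganglia and at 7.31, 4.46, 6.28, 6.31 and 5.49 RPKM in sacral ganglia. The lowest lumbar library stood above the highest sacral library, so the levels did not overlap, as for 0.0413% of 29049 genes, with genes of low level included. The difference, sacral minus lumbar, was -0.58 ± 0.08 on the log2 scale (SE; limma, adjusted p = 0.000196), a sacral level 33.3% below the lumbar level. Mbp (ENSMUSG00000041607) shares a stretch with the pseudogene Rpl21-ps8 on the opposite strand, whose reads summed to 2072 over all libraries against 864 to 3196 reads of Mbp per library, and whether counting used strand is not stated.

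Mal was also lower in sacral ganglia of all 10 embryos, but its levels overlapped. Its lumbar values ran from 11.2 through a median of 19.3 to 37.5 RPKM, and its sacral values from 6.02 through 13.1 to 18.8 RPKM. The difference was -0.68 ± 0.16 (limma, adjusted p = 0.0163). Within embryos it ranged from -0.02 in F9 to -1.45 in F7.

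Pmp22 was lower in sacral ganglia of 10 of 10 embryos and Cnp of 9 of 10, and neither passed the main test, although both passed in the paired fit with the donor as a fixed effect (limma, adjusted p = 0.0268 and 0.0438). Pmp22 ran from 119 through 211 to 261 RPKM in lumbar and from 97.9 through 163 to 214 RPKM in sacral ganglia, a difference of -0.32 ± 0.11 (limma, adjusted p = 0.0951). Cnp ran from 12.7 through 16.9 to 22.0 RPKM in lumbar and from 6.24 through 13.2 to 20.6 RPKM in sacral ganglia, a difference of -0.43 ± 0.13 (limma, adjusted p = 0.0507). The embryo that went the other way for Cnp was M7, with 1666 lumbar and 2057 sacral reads. Cnp lies over Dnajc7, a protein-coding gene on the opposite strand with 24588 reads, so its reads cannot be told apart from those of Dnajc7 where the exons meet. Cnp passed with 10 of 23 alternative settings, at adjusted p from 0.00705 to 0.0495, and Pmp22 with 3 of 23.

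Of the late genes, Prx was lower in sacral ganglia of every embryo, with the largest mean difference among the 6 members that had reads in all libraries. In males M1, M3, M5, M7 and M8, Prx was at 2.55, 1.92, 1.47, 1.12 and 1.30 RPKM in lumbar and at 0.920, 0.705, 0.534, 0.737 and 0.629 RPKM in sacral ganglia. In females F3, F7, F8, F9 and F10, it was at 1.86, 1.41, 1.74, 0.816 and 1.19 RPKM in lumbar and at 0.866, 0.528, 0.864, 0.324 and 0.678 RPKM in sacral ganglia. Lumbar F9 was the only lumbar library below any sacral library, and F9 also had the lowest sacral value. The difference was -1.17 ± 0.17 (limma, adjusted p = 0.000516), a sacral level 55.5% below the lumbar level. Prx reached a mean of 1 RPKM, the entry limit of that test, only in its lumbar groups. With no such limit its adjusted p was 0.00153 (limma). Between 46 and 407 reads per library stood behind these values. Gm15541, a transcript on the opposite strand within Prx (ENSMUSG00000053198, chr7:28284343-28305233 in mm9), had 293 reads over all libraries.

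Mag (ENSMUSG00000036634, chr7:31684202-31699851 in mm9) was counted in few reads. In lumbar ganglia it had 68, 21, 5, 10 and 28 reads in males M1, M3, M5, M7 and M8 and 39, 17, 32, 9 and 24 reads in females F3, F7, F8, F9 and F10. In sacral ganglia of the same embryos it had 23, 10, 1, 18 and 0 reads in males and 11, 4, 5, 0 and 16 reads in females. All embryos but M7 had fewer reads in the sacral library. A count of 0 allows a level of up to 0.0438 RPKM in sacral M8 and 0.0486 RPKM in sacral F9, which covers counting error only. With these blanks set to 0.5 reads, the mean difference was -2.03 ± 1.75 (SD, n = 10; two-sided exact permutation test of signs, p = 0.00586). Mag did not reach a mean of 1 RPKM in any group and was left out of the test across genes. With no such filter its adjusted p over 29049 genes was 0.0873 (limma).

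Egr2 fell about as far as Prx but varied more between embryos. In males M1, M3, M5, M7 and M8, Egr2 was at 1.75, 1.12, 1.29, 0.535 and 0.952 RPKM in lumbar and at 0.397, 0.718, 0.475, 0.364 and 0.469 RPKM in sacral ganglia. In females F3, F7, F8, F9 and F10, it was at 0.801, 1.30, 1.29, 0.388 and 0.837 RPKM in lumbar and at 0.885, 0.663, 0.290, 0.197 and 0.355 RPKM in sacral ganglia. F3 alone was higher in the sacral library, and the levels overlapped. The difference was -1.10 ± 0.27 (limma, adjusted p = 0.0185), from 17 to 181 reads per library. The call was lost without F10, M1 or M5, at adjusted p of 0.0559, 0.0595 and 0.0674. Egr2 reached a mean of 1 RPKM, the entry limit of that test, only in lumbar males. With no such limit its adjusted p was 0.0305 (limma).

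Gjb1 was hardly detected. It had 0 to 16 reads per library, none in 7 libraries and more than 3 in 7. The mean difference was 0.68 ± 2.40 (SD, n = 10; two-sided exact permutation test of signs, p = 0.383), with 4 embryos lower and 6 higher in sacral ganglia. The highest counts were 16 reads in sacral F7 and 14 in sacral M5. A change between levels was not detectable at this depth.

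The test across genes held those whose mean log2 RPKM reached 0, the log2 of 1 RPKM, in at least 1 group. Of these, 978 of 14529 passed the test between levels, or 6.73%, with 586 lower (4.03%) and 392 higher (2.7%) in sacral ganglia. The share of calls that were lower was 59.9%, and 46.6% when libraries were scaled to a common upper quartile. Of the 6 members in that test, 4 were lower and none was higher. Prx entered it only through its lumbar means and Egr2 only through its lumbar male mean, so nothing is read from this count. With no filter on low values, the test held all 8 members, and the same 4, Mbp, Prx, Egr2 and Mal, were lower, at a background of 0.964% called lower and 0.781% called higher among 29049 genes. The median difference of the 8 was -0.63, and that of all genes in that test was 0.0034. A gene was lower in the sacral library of all 10 embryos for 1.07% of those 29049 genes, and this held for Mbp, Pmp22, Prx and Mal. At least 9 of 10 embryos were lower for 4.18% of genes, and this held also for Egr2, Mag and Cnp. Many of the 29049 genes lie under 1 RPKM in every group mean, so these shares are not those of genes at like levels. The members were also chosen with earlier results of these data known. Their counts and median beside these shares are therefore no test of the set.

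The late genes were next set against the early genes within each embryo. The mean difference between levels was -1.60 ± 0.95 for Prx and Mag and -0.40 ± 0.44 for the 6 early genes (SD, n = 10 embryos). The late mean minus the early mean was -1.20 ± 0.97 and was below 0 in 10 of 10 embryos, from -2.83 in F9 to -0.06 in M7. This score has no test, since the members were chosen with results known. It depended on the scale for low genes: on log2(RPKM + 1) it was -0.042 ± 0.14 and was below 0 in 7 embryos. It also moved with the early genes used. The early mean includes Gjb1, which had 0 to 16 reads per library and was higher in sacral ganglia in 6 embryos and lower in 4. The Gjb1 difference was 2.06 in M7 and 3.18 in F10, so the count of 10 embryos leaned on few reads. Against the early genes without Gjb1 and Mal the score was -0.99 ± 0.90 and below 0 in 8 embryos, with 0.30 in M7 and 0.18 in F10. Against the median of the early genes it was -1.09 ± 0.91 and below 0 in 9. In splits added after the data were seen, Prx alone, set against the early genes other than Gjb1, gave -0.55 ± 0.30, below 0 in all 10 embryos. Mag alone gave -1.41 ± 1.69, below 0 in 8.

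Prx did not stand apart from every early gene. The log2 ratio of Prx to Pmp22 was lower in sacral ganglia by -0.85 ± 0.28 (SD, n = 10) and in all 10 embryos, and the ratio of Prx to Cnp by -0.74 ± 0.32 in all 10. Against Mbp it moved by -0.58 ± 0.33 in 9 embryos and against Mal by -0.49 ± 0.47 in 8. The ratio of Prx to Egr2, an early gene, moved by only -0.07 ± 0.70 and was lower in 7.

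**Figure D2:**
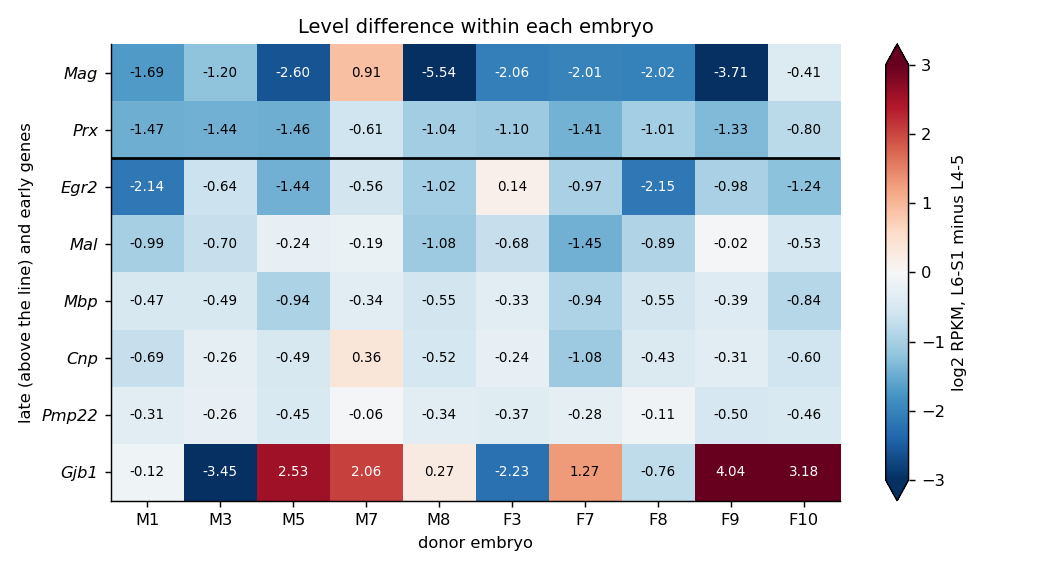
Difference between levels (log2 RPKM, L6-S1 minus L4-5) of each gene (rows, late genes above the line) in each embryo (columns), with blue for lower and red for higher in sacral ganglia and colours capped at 3. Prx is between -1.47 and -0.61 in every embryo, while Mag and Gjb1, with few reads, swing from -5.54 to 4.04.

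Other genes of the sheath gave a wider view. In the test with no filter, 2 of 14 further structural genes of myelin and 2 of 7 lipid genes were lower, and none was higher. Of all 29049 genes in that test, 0.964% were lower and 0.781% higher. The median differences were -0.14 for structural genes and -0.46 for lipid genes. Gjc3, the gap junction protein connexin 29, fell by 0.88 ± 0.16 on the log2 scale (SE; limma, adjusted p = 0.00305 in the test of 14529 genes). Ugt8a, which makes galactosylceramide, fell by 0.55 ± 0.15 (limma, adjusted p = 0.0345), but not in the test with no filter (adjusted p = 0.0893).

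Wider differences than that of Prx were found in Cldn19, Fa2h and Gal3st1, which are singled out after their values were seen. Their mean log2 RPKM lay under 0, the log2 of 1 RPKM, in each group. Cldn19, the claudin of tight junctions in peripheral myelin, ran from 0.156 through a median of 0.935 to 2.13 RPKM in lumbar and from 0.0416 through 0.125 to 0.293 RPKM in sacral ganglia. Its reads summed to 1177 in the lumbar and 170 in the sacral libraries, and it was lower in all 10 embryos, with a difference of -2.75 ± 0.38 (limma with no filter, adjusted p = 0.000641). Gm12927, on the opposite strand, had 82 reads over all libraries.
Fa2h, which hydroxylates the fatty acids of myelin lipids, had 658 lumbar and 177 sacral reads and a difference of -2.27 ± 0.39 (limma with no filter, adjusted p = 0.00496). Gal3st1, which makes sulfatide from galactosylceramide, had 392 lumbar and 146 sacral reads and a difference of -1.58 ± 0.32 (limma with no filter, adjusted p = 0.0164). Both were lower in all 10 embryos, and for each the highest sacral libraries overlapped the lowest lumbar libraries. Over 15 further settings with no filter, added after the data were seen, Cldn19 and Fa2h passed in all 15 and Gal3st1 in 14, missing without the donor block (adjusted p = 0.0719).

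**Figure D3:**
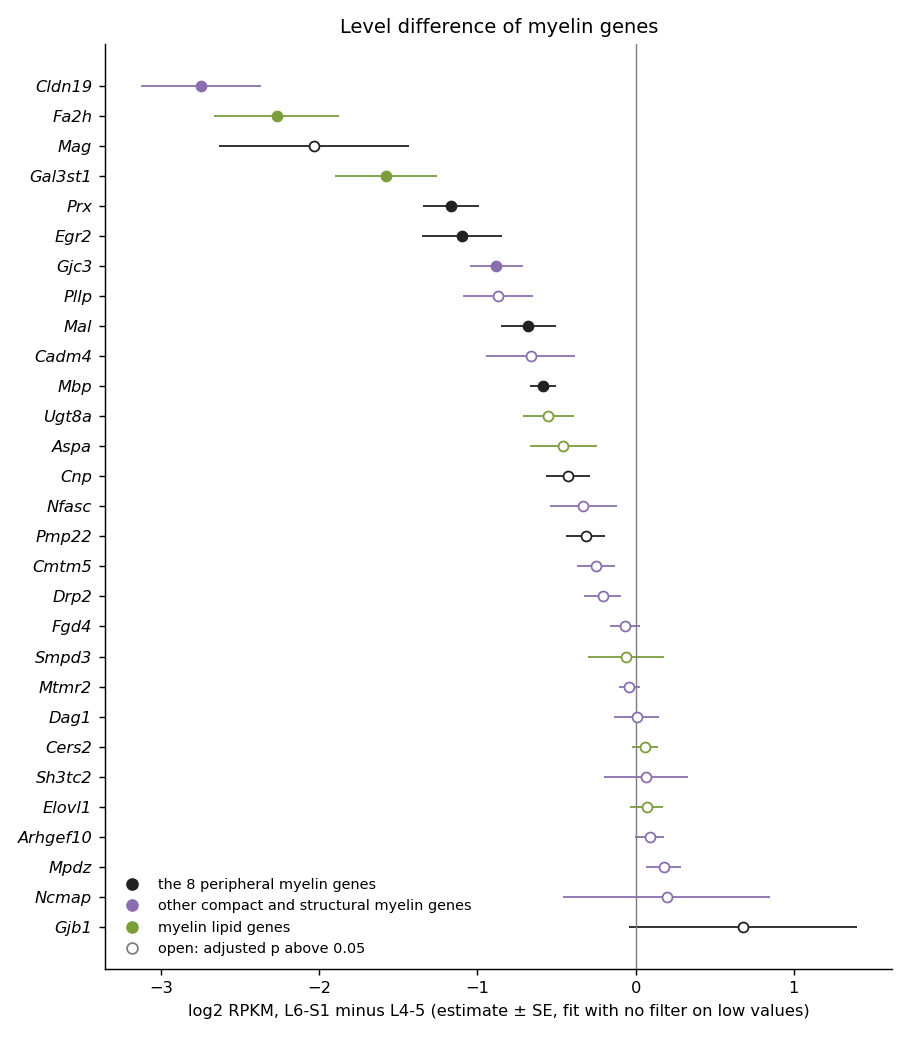
Difference between levels (log2 RPKM, L6-S1 minus L4-5, estimate ± SE from the limma fit with no filter on low values) for 29 myelin genes, black for the 8 members, purple for other structural genes and green for lipid genes, with filled points at adjusted p up to 0.05. Cldn19, Fa2h and Mag lie at -2.75, -2.27 and -2.03, and Gjb1 at 0.68 with a wide error.

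Among regulators of myelination, the factors that act with Egr2 did not move together. Sox10, expressed through the whole Schwann cell lineage, had a difference of -0.11 ± 0.12 (SE; limma, adjusted p = 0.618) and was lower in 6 of 10 embryos. Pou3f1, which acts before Egr2 in the promyelinating cell, is listed under 2 overlapping identifiers, whose reads cannot be told apart. Under the identifier with recovered reads it had 223 lumbar and 45 sacral reads, was lower in 9 of 10 embryos, and had a difference of -2.37 ± 0.56 (limma with no filter, adjusted p = 0.0334), a call that held in 8 of 15 further settings. Of the 19 identifiers in the list of promoting regulators, the 2 of Pou3f1 were lower and none was higher, with a median of -0.10. These 2 stand for 1 gene, in the test with no filter, where 0.964% of all genes were lower. In the list of 14 restraining and immature Schwann cell genes, only Id2, an inhibitor of helix-loop-helix factors, passed, and it fell by 0.46 ± 0.10 (limma, adjusted p = 0.00744). Among 11 axonal ligand and node genes, Cntnap2, a protein beside the node of Ranvier, fell by 0.66 ± 0.18 (limma, adjusted p = 0.0302) but passed only with the filter, and it lies over Rbpsuh-rs3 on the opposite strand. Of all 14529 genes in the test with the filter, 4.03% were lower and 2.7% higher.

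Markers of other cells moved between the levels too. The summed level of 11 Schwann and satellite glia markers was 289 to 371 RPKM in lumbar and 191 to 316 RPKM in sacral ganglia, lower in 9 of 10 embryos, and 2 of the 11 were lower in the test: S100b by -0.67 ± 0.11 (limma, adjusted p = 0.00188) and Fabp7 by -0.40 ± 0.11 (adjusted p = 0.0383). Most of that sum was Fabp7, with a mean of 162 RPKM against at most 24.8 RPKM for any other marker. The median log2 level of the 11 markers in a library differed by -0.25 ± 0.50 between levels (SD, n = 10) and was lower in 6 embryos. The median of the 11 single differences was -0.27, and all 11 were below 0. Among the 11 is Gfra3, which the study lists with genes of small neurons without myelin. S100b lies over Dip2a on the opposite strand. The summed level of 10 markers of large myelinated sensory neurons was 288 to 776 RPKM in lumbar and 161 to 390 RPKM in sacral ganglia, lower in 9 embryos. Most of that sum was Nefm, with a median of 438 RPKM in lumbar and 195 RPKM in sacral ganglia. The median difference of the 10 markers was -0.24. Of these 10 markers, the neurofilament genes Nefh and Nefm and the calcium-binding protein gene Pvalb were lower, by -0.86 ± 0.18, -1.14 ± 0.21 and -1.33 ± 0.15 (limma, adjusted p = 0.00871, 0.00381 and 1.26e-05), and Calb1 and Maf were higher. Pan-neuronal markers had sums of 948 to 2046 RPKM in lumbar and 504 to 1785 RPKM in sacral ganglia, a log2 ratio of -0.34 ± 0.37 (SD, n = 10), lower in 9 embryos. Of these 12 genes, Snap25 was lower in the test, and the differences of the other 11 were below 0.
Fibroblast and meninges markers, with 5 of 10 higher (Foxc1, Pdgfra, Col1a1, Col1a2 and Twist1), had sums of 365 to 926 RPKM in lumbar and 433 to 1091 RPKM in sacral ganglia. Cartilage markers had 1 of 3 tested higher (Col2a1) and endothelial markers 2 of 5 (Cdh5 and Tek), and none of the skeletal muscle, erythroid, macrophage or proliferation markers passed. These calls are from the test of 14529 genes, where 4.03% of all genes were lower and 2.7% higher. With no filter, Fabp7, Calb1 and Maf missed (limma, adjusted p = 0.0838, 0.0988 and 0.0853), and the calls were 3 of 10 fibroblast, 2 of 6 cartilage and 0 of 6 endothelial markers, all higher. Of all 29049 genes with no filter, 0.964% were lower and 0.781% higher. No defining marker of glia, large neurons or fibroblasts was listed at 0 in all libraries. The part of these cell types in the myelin differences was not tested.

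**Figure D4:**
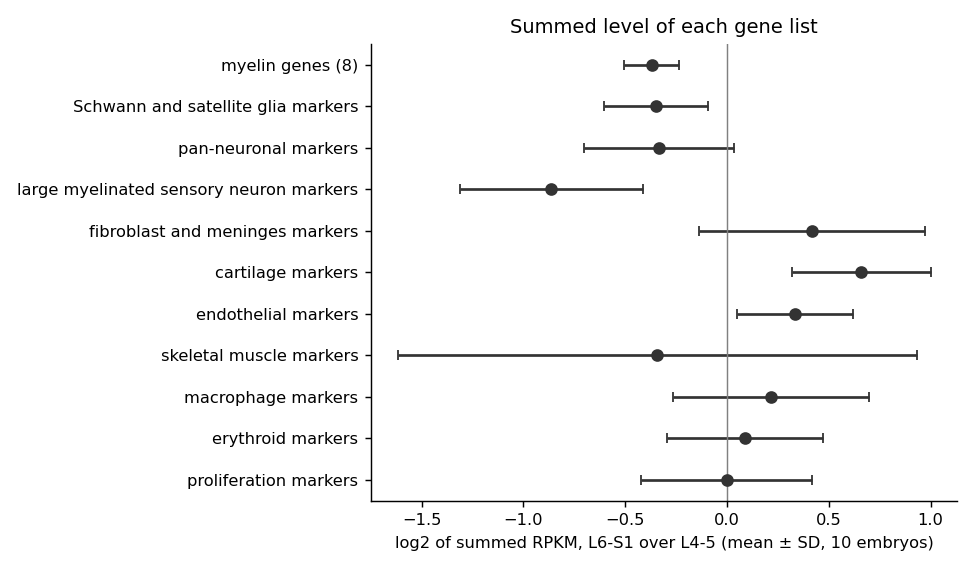
Log2 ratio of the summed RPKM in sacral over lumbar ganglia for the 8 myelin genes and for each marker list (mean ± SD over 10 embryos). The myelin genes, whose sum is mostly Pmp22, sit at -0.37 ± 0.14 (the median difference of the 8 was -0.63) and glia markers, mostly Fabp7, at -0.35 ± 0.26. Large neuron markers, mostly Nefm, sit at -0.86 ± 0.45 (the median difference of the 10 was -0.24), and fibroblast and cartilage markers sit above 0.

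Relative to the glia markers or to Sox10, Prx stayed lower in every embryo, and Mal and Mag in 9 by either reference. The number of embryos lower for Mbp, Egr2, Cnp and Pmp22 changed with the reference. The median log2 level of the glia markers in the same library was first subtracted. The markers were S100b, Fabp7, Cdh19, Kcnj10, Foxd3, Sox10, Erbb3, Gfra3, Ptprz1, Postn and Cdh6. With Gfra3 among them, this reference is not of glia alone. Prx was then still lower by -0.91 ± 0.43 (SD, n = 10) and in all 10 embryos, and Mal by -0.42 ± 0.36 in 9. Mbp was at -0.33 ± 0.38, lower in 8. Pmp22 was at -0.06 ± 0.50 and Cnp at -0.17 ± 0.31, each lower in 5 embryos, Egr2 at -0.84 ± 0.82, lower in 8, and Mag at -1.78 ± 1.68, lower in 9. Relative to Sox10, Prx was at -1.06 ± 0.37 and lower in all 10 embryos. Mbp was at -0.48 ± 0.40, Mal at -0.57 ± 0.37, Egr2 at -0.99 ± 0.76 and Mag at -1.93 ± 1.56, each lower in 9. Cnp was at -0.32 ± 0.27, lower in 8, and Pmp22 at -0.21 ± 0.43, lower in 6. Gjb1 was lower in 3 embryos by either reference.

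No member differed between the sexes by the test at either level. Female minus male differences of the 6 tested members ran from -0.32 to -0.04 in lumbar ganglia (limma, adjusted p from 0.748 to 0.971), where 0.33% of all genes were called, and from -0.36 to -0.09 in sacral ganglia (adjusted p from 0.389 to 0.865), where 1.01% were called. The widest in sacral ganglia was that of Pmp22, at -0.36 ± 0.20. Male and female libraries overlapped for every member at both levels, while they did not for 2.19% of all tested genes in lumbar and 3.96% in sacral ganglia. The library numbers in the labels run in separate blocks for the sexes, so sex and any order of handling cannot be told apart. The difference between levels was of like size in both sexes: Mbp was at -0.56 ± 0.23 in males and -0.61 ± 0.27 in females, and Prx at -1.20 ± 0.38 and -1.13 ± 0.25 (SD, n = 5 each). Of all genes, 0 (0%) passed the test of the interaction of level and sex (limma), and 470 of 14529 had an unadjusted p under 0.05. The interaction of the 6 tested members was between -0.21 and 0.12, each with adjusted p = 0.995.

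The mitochondrial ribosomal RNA share of a library went with several members within a level. In the 10 sacral libraries, Pmp22 had r = -0.83 and rho = -0.78 with the share (permutation test of 100000 resamples, p = 0.00347 and 0.0106, adjusted over 16 relations to 0.0169 and 0.0340), and r was -0.92 without F3 and M3, the sacral libraries farthest from the median share. Mbp had r = -0.80 and rho = -0.83 (permutation p = 0.00422 and 0.00448, adjusted 0.0169 and 0.0340), and without F3 and M3 r was -0.76. Cnp had r = -0.75 and rho = -0.78 (permutation p = 0.00945 and 0.0106, adjusted 0.0252 and 0.0340), and -0.74 without F3 and M3. Gjb1, with at most 16 reads, went the other way, with r = 0.88 and rho = 0.96 (permutation p = 0.00128 and 5e-05, adjusted 0.0169 and 0.0008), and r = 0.77 without F3 and M3. Mal and Prx passed by 1 of the 2 measures each after adjustment, Mal by r = -0.70 (permutation p = 0.0215, adjusted 0.0492) and Prx by rho = -0.78 (permutation p = 0.0106, adjusted 0.0340). In the 10 lumbar libraries, Pmp22 had r = -0.80 and rho = -0.61 (permutation p = 0.00726 and 0.0676, adjusted 0.0232 and 0.135) and r = -0.73 without F7 and M5, while Mbp had r = 0.20 and Prx r = 0.05. The lumbar relation of Cnp, r = -0.81 and rho = -0.76 (permutation p = 0.00386 and 0.0147, adjusted 0.0169 and 0.0393), rested on F7 and M5, and r was -0.40 without them. With the share as a covariate, all 6 tested members were lower in sacral ganglia.

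**Figure D5:**
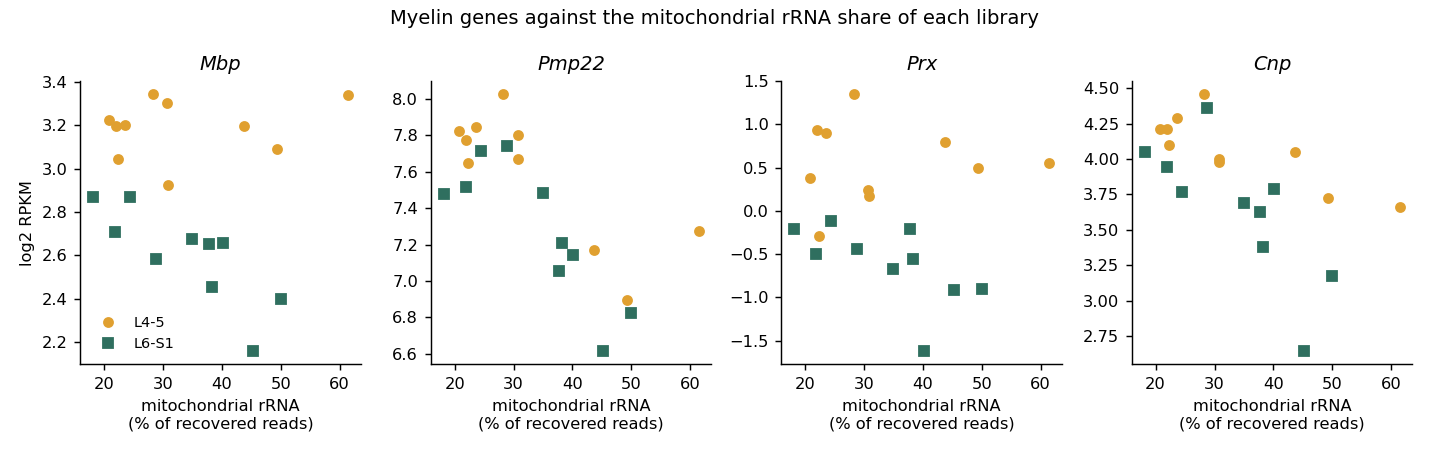
Level (log2 RPKM) of Mbp, Pmp22, Prx and Cnp in each library against its share of recovered reads on the mitochondrial ribosomal RNA genes (percent), with circles for lumbar L4-5 and squares for sacral L6-S1. At every share the sacral points of Mbp lie below the lumbar points, and Pmp22 falls with the share at both levels.

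Genes whose difference between levels rose and fell with that of a member across the 10 embryos were listed, with no test. For Mbp they were Mrpl43 (r = 0.92), Cadm4 (r = 0.90), Gm11016 (r = 0.90), Scg5 (r = 0.90) and Rnd2 (r = 0.88). Cadm4 is a Schwann cell adhesion molecule that binds the axon, and its own difference was -0.66 ± 0.25 (SE; limma, adjusted p = 0.116). For Prx they were Rnf130, Tmco7, Gm12918, Sars2 and Nhs, with r from 0.83 to 0.85, and for Mag they were Ric8b, Scaf11, Zfp319, Arid4a and Ints3, with r from 0.90 to 0.94. No member was among the 5 genes listed for another. Of the members, Cnp was closest to Mbp, with r = 0.68, which ranked 178 among 14040 genes.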

How the data were processed

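The authors aligned reads of 20 libraries to mm9 with Subread, counted uniquely mapped reads per Ensembl 67 gene with featureCounts, scaled them by TMM and the voom method (limma 3.26.9, per the submitters' notes) and deposited them as log2 RPKM. Whether counting used strand is not given in the sources used here. Groups and donors were read from the labels.

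Of the genes listed, 29049 had a value and 8571 were blank in all libraries. With exon lengths of GENCODE M1 (mm9), 97.66% of values were whole reads to within 0.05. A blank was set to 0.5 reads, or to 1 below the gene's lowest value where reads were not recovered. Values were tested with limma 3.58.1 in R 4.3.3, with a mean per group, the donor as a block (duplicateCorrelation, correlation 0.342) and a mean-variance trend. The donor code pairs libraries of the same embryo and the study blocked on it. Genes whose mean log2 RPKM reached 0, the log2 of 1 RPKM, in a group were tested. Their p-values were adjusted by Benjamini-Hochberg over all of them and the threshold was 0.05. Members under the filter had a two-sided exact permutation test of signs over 10 embryos, which cannot go below 0.00195. The embryos are separate animals. The script was tested on simulated data.

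The members and gene lists were chosen with earlier results of these data known, and 2 listed genes are not reported here and were left out of the list values. Named were all members, genes of the myelin, regulator and axonal lists past the threshold of the comparison between levels, Sox10 and Pou3f1, and the 5 genes most like Mbp, Prx and Mag. Promoter sequences are from RefSeq, GRCm38.p6. Alternatives changed the block, filter, pseudocount, blank value, weights, trend, scaling and covariates or left out a donor.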

Additional observations from a re-analysis of the deposited data

Results flagged for a closer look

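Each member was looked at for a library far from the rest of its group, in 32 groups of 5 libraries, where chance gives about 1 flag in 20 groups. Pmp22 in sacral male M5 was at 6.82 log2 RPKM, apart from the other 4 sacral males, with a gap to the nearest of 0.715 of the group's range. Mal in sacral female F7 was at 2.59 log2 RPKM, with a gap of 0.914 of the range. M5 and F7 have the highest mitochondrial ribosomal RNA shares among sacral libraries. Over the 10 sacral libraries, these included, Pmp22 had r = -0.83 and rho = -0.78 with the share (permutation test, adjusted p = 0.0169 and 0.0340), and Mal had r = -0.70 and rho = -0.71 (permutation test, adjusted p = 0.0492 and 0.0585).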

How the results depend on the processing

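The count of genes called between levels, 978, was 507 with no filter on low values, 154 with no replicate block and 2998 with sample weights. With 1 donor left out it ranged from 401 (without F10) to 1594 (without F8), and it was 487 without M5, 511 without F7, 562 without F3 and 600 without M1. The count of members called, 4, from which nothing is read since Prx and Egr2 entered the test through their lumbar means, was 2 with no replicate block, where Egr2 (adjusted p = 0.107) and Mal (adjusted p = 0.116) missed, from 3 to 5 with a donor left out, and 6 with the donor as a fixed effect, the mitochondrial share as a covariate or sample weights. Mbp passed under all 23 alternatives and Prx under all 22 that held it. On log2(RPKM + 1) the late minus early difference was -0.042, against -1.20. No called value changed direction. Pairing by donor comes from the labels, and the fits without it and with the fixed effect changed no other member's call than those of Egr2, Mal, Cnp and Pmp22. The causes of these shifts were not tested. Read depth limits Mag and Gjb1.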
